A study of Mus musculus with 2 samples.

Results

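The Mirg microRNA cluster is a dense array of microRNA genes on distal mouse chromosome 12, at the far end of the imprinted Dlk1-Dio3 domain. Its members were taken by position: every listed miRNA gene lying wholly between 109.7 and 109.75 Mb on chromosome 12 (build mm10). Of 1973 listed miRNA genes, 38 met the rule. For 34 of them the counts came from the gene's own strand. The other 4 rows were minus-strand genes (Mir299b, Gm25750, Gm25252 and Gm24321), whose opposite-strand counts were read as the plus-strand miRNA at the same place, Mir299a, Mir380, Mir376a and Mir409. The measurements were small RNA sequencing libraries of skeletal muscle from mice of strain B6NCrl, a C57BL/6 substrain, collected at postnatal day 0. The 2 libraries came from pup 1 (replicate 1) and pup 2 (replicate 2) of 1 pregnancy, with sex not collected and no treatment or genetic alteration given. Both fall in 1 group, so no conditions were compared, and differences between pups could not be told apart from differences in dissection or library preparation. Levels below are CPM, a gene's count per 1000000 counts in miRNA genes on either strand of that library.

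MicroRNAs are short RNAs cut from hairpin precursors. Each hairpin can give a 5p and a 3p arm, and an arm pairs with target messenger RNAs mainly through its seed, bases 2 to 8 from its 5′ end. At Dlk1-Dio3, the protein-coding genes Dlk1, Rtl1 and Dio3 are expressed from the paternal chromosome, while the long non-coding RNAs Meg3, Rian and Mirg and the microRNAs around them are expressed from the maternal one. These microRNAs are best known from embryo, placenta, brain and developing or regenerating muscle, where the muscle transcription factor MEF2A is known to raise them, and Mir410 of this cluster is known to act on the Wnt antagonist sFRP2.

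The cluster spans 38.9 kb from the start of Mir379 to the end of Mir3072. The label Mirg covers only its distal part in the annotation used (GENCODE M21), where the Mirg gene runs over chr12:109729764-109749460. In that annotation 24 members lay outside any annotated host gene and 14 lay inside Mirg. Of those 14, 4 were exonic (Mir134, Mir485, Mir377 and Mir410), 5 overlapped an exon in part and 5 were intronic.

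Seeds tie several members together. The RefSeq table (build GRCm38.p6) held 69 mature sequences for 37 of the 38 members, with 64 different seeds. It held both arms of 32 members, 1 arm each of Mir376c, Mir487b, Mir539, Mir485 and Mir453, and none of Gm27379. Among the 69 arms, 5 seeds were shared by a pair of members, 9 genes in all, and since not every arm could be compared these numbers are minimums. The arms that share a seed are shown first, with the seed in capitals, because they define the families along the cluster. miR-411-5p is placed with miR-379-5p, from which its seed differs by 1 base.
miR-379-5p: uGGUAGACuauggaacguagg
miR-1193-5p: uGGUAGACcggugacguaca
miR-411-5p: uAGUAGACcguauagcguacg
miR-379-3p: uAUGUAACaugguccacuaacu
miR-411-3p: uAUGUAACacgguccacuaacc
miR-1197-5p: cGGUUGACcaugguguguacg
miR-758-5p: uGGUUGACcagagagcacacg
miR-494-5p: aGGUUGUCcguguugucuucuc
miR-410-5p: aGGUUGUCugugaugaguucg
miR-496a-5p: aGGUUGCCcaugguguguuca
miR-453: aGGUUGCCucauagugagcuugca

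Further arms had seeds that differ at 1 base, 44 pairs in all, counting Mir376b, which lies in the cluster but had no row in the count tables. Positions are counted from 1 at the 5′ end of the mature sequence, and the first-named arm gives the first base. From miR-379-5p to miR-411-5p the substitution was G2A. From miR-300-3p to miR-381-3p it was G4A, and these 2 arms had 16 consecutive bases in common. From miR-376b-3p to miR-376a-3p it was A4G. The 3p arms of these genes, and the 5p arm of the most abundant member, Mir487b, are shown with the seed in capitals so that the single-base differences and the recurring 5′ end can be read directly.
miR-300-3p: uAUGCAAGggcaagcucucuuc
miR-381-3p: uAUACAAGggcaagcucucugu
miR-376b-3p: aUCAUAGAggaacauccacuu
miR-376a-3p: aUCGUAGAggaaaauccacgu
miR-487b-5p: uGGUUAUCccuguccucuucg

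The letters GGU near the 5′ end, visible in most of the 5p arms above, recurred through the cluster. GGU lay within bases 1 to 6 of 19 of 35 5p arms of members (54.3%), against 73 of 690 5p arms elsewhere in the RefSeq table (10.6%). In the 3p arms GGU occurred anywhere in 15 of 33 members' sequences (45.5%) and in 165 of 696 elsewhere (23.7%). Only the mature RNA strand was searched, and the letters were chosen after the sequences were seen, so these shares are a description. Seeds of 10 members' arms also occurred in microRNAs elsewhere in the genome. Among them, miR-329-3p shared ACACACC with miR-362-3p, and miR-410-3p shared AUAUAAC with miR-344d-3p and miR-344e-3p. The 5 seeds shared by members were found in no microRNA of that table outside the interval. Mir376b, which had no row in the count tables, was left out of these seed groups.

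The libraries held 4170623 and 5796817 counts in miRNA genes, 58.4% and 58.3% of all reads. Multimapping reads (30.2% and 29.9%) were given apart from the genes. All 8 skeletal muscle markers on the list used had counts, and their summed shares were 7.32% and 7.91%. That sum was nearly all Mir206, which held 298316 of the 305404 list counts in replicate 1 and 447669 of 458731 in replicate 2. In replicates 1 and 2, few counts fell on Mir133a-2 (4, 6), Mir133a-1 (20, 32) and Mir1a-1 (24, 46). Of the neural markers 13 of 14 were listed, with 0.132% and 0.150% of counts. The highest were Mir128-1 (501 and 621 CPM), Mir128-2 (360 and 454 CPM) and Mir338 (340 and 317 CPM). At 0 in both were 4 of the list (Mir124a-1, Mir124a-2, Mir124a-3 and Mir9-2). The part of multimapping reads in these muscle and neural values was not tested. Epithelial and skin markers, 7 of 7 listed, summed to 0.512% in replicate 1 and 0.0203% in replicate 2, and the cartilage miRNA Mir140 had 0.589% and 0.0855%.

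Cluster members made up a large share of all miRNA counts in each library. They held 1018859 counts in replicate 1, a share of 24.43% (95% interval 24.39 to 24.47, Clopper-Pearson), and 1629312 in replicate 2, a share of 28.11% (28.07 to 28.14). The mean share was 26.3% ± 2.60 (SD, n = 2). The intervals, which cover counting error only, did not overlap. Multimapping reads were left out of all these counts, and their part in the share was not tested. Of the 38 members, 36 had at least 10 counts in both libraries. The remaining 2, Mir654 and Mir453, had 0 counts in both, which allows up to 0.719 and 0.518 CPM in turn. Reads were short RNAs counted once per gene, so levels were not divided by gene length, and the tables do not separate the 5p from the 3p arm.

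Mir487b, Mir411 and Mir381 stood above the rest. Mir487b (chr12:109727333-109727414) had 204814 counts in replicate 1 and 323354 in replicate 2, or 49109 and 55781 CPM. Mir411 (chr12:109710175-109710256) had 182296 and 286040 counts, or 43710 and 49344 CPM. Mir381 (chr12:109726822-109726896) had 147035 and 261439 counts, or 35255 and 45100 CPM. By mean CPM they ranked 2, 5 and 7 of all listed miRNA genes. That order leaves out multimapping reads and the opposite-strand counts of genes outside the cluster. Their ranges over the 2 libraries overlapped from 1 to the next, but both libraries gave the same order: Mir487b was 1.12-fold and 1.13-fold above Mir411, and Mir411 was 1.24-fold and 1.09-fold above Mir381. Together they held 52.9% ± 0.723 (SD, n = 2) of the cluster's counts.

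Mir376a, from a hairpin family known for RNA editing of its seed, and Mir379, the first gene of the cluster, came next. Mir376a (chr12:109723781-109723848) had 17975 and 21367 CPM. Mir379 (chr12:109709060-109709125) had 17344 and 18297 CPM. Their ranges overlapped each other and lay below Mir381 in both libraries. The 5 most abundant members held 66.9% (66.79 to 66.97) of the cluster's counts in replicate 1 and 67.6% (67.49 to 67.63) in replicate 2.

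Below them, 5 members had levels around 10000 CPM. Mir409 (chr12:109743158-109743236) had 11659 and 13017 CPM, Mir369 (chr12:109743418-109743496) had 9866 and 11887 CPM, and Mir299a (chr12:109710638-109710700) had 9059 and 11021 CPM. Mir380 (chr12:109711803-109711863) had 7445 and 9223 CPM, and Mir541 (chr12:109742409-109742498) had 8543 and 7083 CPM. Mir541 was the only one of these 5 with the lower value in replicate 2, so it stood above Mir380 in replicate 1 and below it in replicate 2. From Mir409 down to Mir541 each range overlapped the next, while Mir382 (chr12:109733771-109733846), with 6402 and 6669 CPM, and Mir154 (chr12:109738433-109738498), with 4876 and 5583 CPM, lay below without overlap. Of the 11 steps between neighbours among the 12 most abundant members, 10 had the same direction in both libraries, the exception being Mir380 and Mir541. The 10 most abundant members held 86.0% ± 0.138 (SD, n = 2) of the cluster's counts.

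The other members reached far lower levels. By mean CPM, 8 members had at least 10000, 12 had 1000 to 10000, 11 had 100 to 1000 and 5 had counts but fewer than 100. The median member had 1135 CPM. Mir134, known from the control of dendritic spine size in neurons, had 2319 and 2541 CPM. Mir3072, the last gene of the cluster, had 83.0 and 102 CPM. The other 4 members under 100 CPM rested on few reads: Mir758 had 95 and 151 counts, Mir544 had 46 and 111, Gm27379 had 23 and 23, and Mir1197 had 16 and 26. The highest mean CPM was 12605 times the lowest of those above 0. The order of members was nearly the same in both pups, with a Spearman rho of 0.999 over the 38 members, a description across genes of the same 2 libraries.

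**Figure D1:**
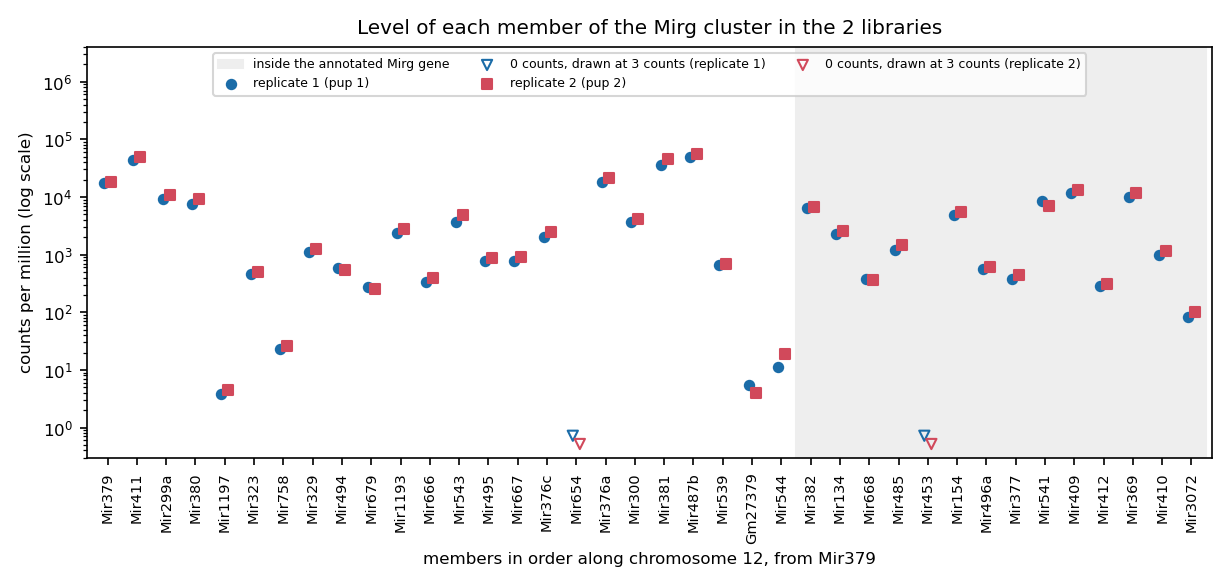
Level in CPM (log axis) of the 38 members in genomic order from Mir379 to Mir3072, with a circle for replicate 1, a square for replicate 2 and open triangles where a member had 0 counts. The levels of adjacent members jump by up to several orders of magnitude while the 2 libraries nearly coincide at each member.

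Along the cluster, 3 stretches with abundant members were singled out after the values were seen. The first 4 members, Mir379, Mir411, Mir299a and Mir380, held 31.7% of cluster counts in replicate 1 and 31.3% in replicate 2. The run from Mir376a through Mir300 and Mir381 to Mir487b held 43.4% and 45.0%. The run from Mir541 through Mir409, Mir412 and Mir369 to Mir410, inside Mirg, held 12.8% and 11.9%. The other 25 members held 11.9% ± 0.150 (SD, n = 2). The part inside the annotated Mirg gene accounted for 19.5% of cluster counts (19.38 to 19.54) in replicate 1 and 18.2% (18.16 to 18.28) in replicate 2.

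**Figure D2:**
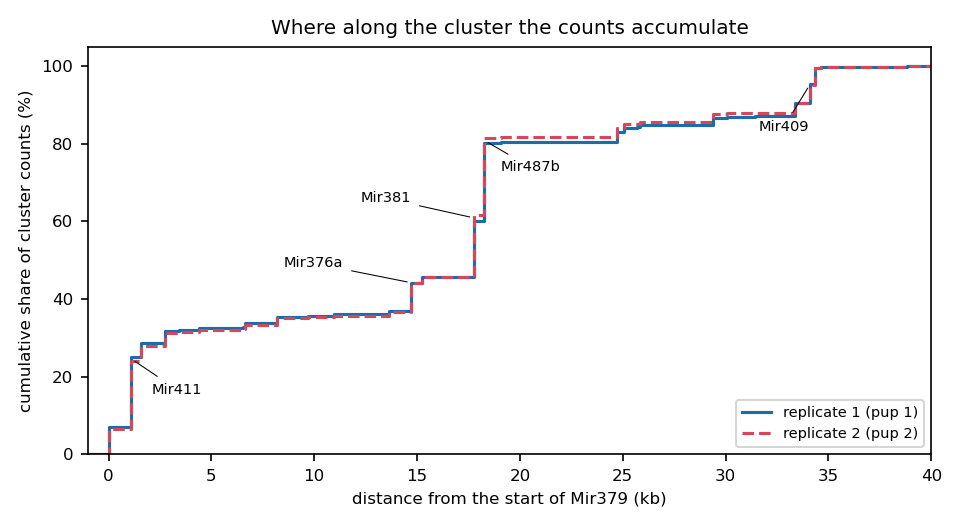
Cumulative share of cluster counts (%) against distance from the start of Mir379 (kb), with a solid line for replicate 1 and a dashed line for replicate 2. Steep steps at Mir411, Mir376a, Mir381, Mir487b and Mir409 carry most of the rise, and both libraries follow nearly the same path.

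Adjacent members often differed widely in level. The median gap between adjacent members was 590 bases, with the shortest 20 and the longest 4368. Over 33 adjacent pairs with counts in both genes, the median difference was 7.22-fold, 14 pairs differed by more than 10-fold and 5 by less than 2-fold. The largest step was 2003-fold, from Mir380 (8334 ± 1257 CPM, SD, n = 2) to Mir1197 (4.16 ± 0.459 CPM), 453 bases further on. Mir412 had 282 and 307 CPM although it lies 52 bases after Mir409 and 49 before Mir369, both among the 10 most abundant members. By contrast, after the TMM scaling described below, the 2 libraries differed by a median of 1.27-fold at the 36 members tested. The largest such difference was 1.92-fold. Order along the cluster and level had a Spearman rho of -0.095 over the 38 members, a description with no test, since they share the libraries.

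Some similar hairpins also differed widely in level, while others did not. Over 630 pairs of the 36 hairpins in the RefSeq table, Mir376b included, the median identity in a global alignment was 50.6%. Mir411 and Mir758 were 73.8% identical and had 46527 and 24.4 CPM on average, a 1906-fold difference. Mir381 and Mir300, whose 3p arms are shown above, were 73.8% identical and had 40178 and 3916 CPM, a 10.3-fold difference. By contrast, Mir543 and Mir382 were 73.4% identical and 1.54-fold apart. Mir323 and Mir494 were 71.9% identical and 1.18-fold apart. The most similar pair was Mir376c and Mir376b, at 80.7%. Mir376c had 2059 and 2458 CPM, and Mir376b had no row of its own in the count tables.

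Some members share long stretches with another annotated miRNA gene, which bears on their counts because reads that map to several places were left out. A stretch of at least 20 bases was shared by 5 members: Mir411 with Mir758, Mir758 with Mir411, Mir376c and Mir487b each with Mir376b, and Mir299a with Mir299b on the other strand. They held 42.6% and 42.2% of cluster counts. In Mir411 and Mir758 the shared 21 bases did not make up a mature arm: no more than 12 bases in a row of the annotated arms of Mir411, and 13 of those of Mir758, occurred in another miRNA gene. In Mir376c, 18 bases of miR-376c-5p occurred in Mir376b. The part of multimapping reads in these levels was not tested.

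Within the seed groups, most counts came from Mir379 and Mir411. The 9 seed-sharing members held 26.9% of cluster counts (26.77 to 26.95) in replicate 1 and 25.9% (25.84 to 25.97) in replicate 2. The share is a minimum, because the 6 members with fewer than 2 arms in the RefSeq table held 21.7% and 21.5% of cluster counts, and only the arms in that table were compared. Mir379, Mir411 and Mir1193 alone held 25.5% ± 0.647 (SD, n = 2) of cluster counts. Because counts are per gene, these shares give the genes that could produce an arm with the seed, not the amount of that arm.

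The seed AUGUAAC was carried by the 3p arms of Mir379 and Mir411, which lie 1.115 kb apart, and the pair summed to 61054 and 67641 CPM. The seed GGUAGAC was carried by the 5p arms of Mir379 and Mir1193. Mir1193 (chr12:109715671-109715791) had 2413 and 2809 CPM, 6.82-fold below Mir379 by the means. Mir379 thus belonged to both groups, 1 with each arm.

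The other 3 seed groups were small. For GGUUGAC, Mir1197 (chr12:109712317-109712436) had 16 and 26 counts and Mir758 (chr12:109712810-109712890) had 95 and 151. For GGUUGUC, Mir494 (chr12:109715318-109715402) had 583 and 547 CPM and Mir410 (chr12:109743715-109743795), 28.4 kb away, had 982 and 1169 CPM. For GGUUGCC, Mir496a (chr12:109739119-109739197) had 559 and 611 CPM while Mir453 (chr12:109735619-109735700) had 0 counts in both libraries. In the 4 groups with counts in both genes, the members were 1.90-fold to 6.82-fold apart by mean CPM.

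**Figure D3:**
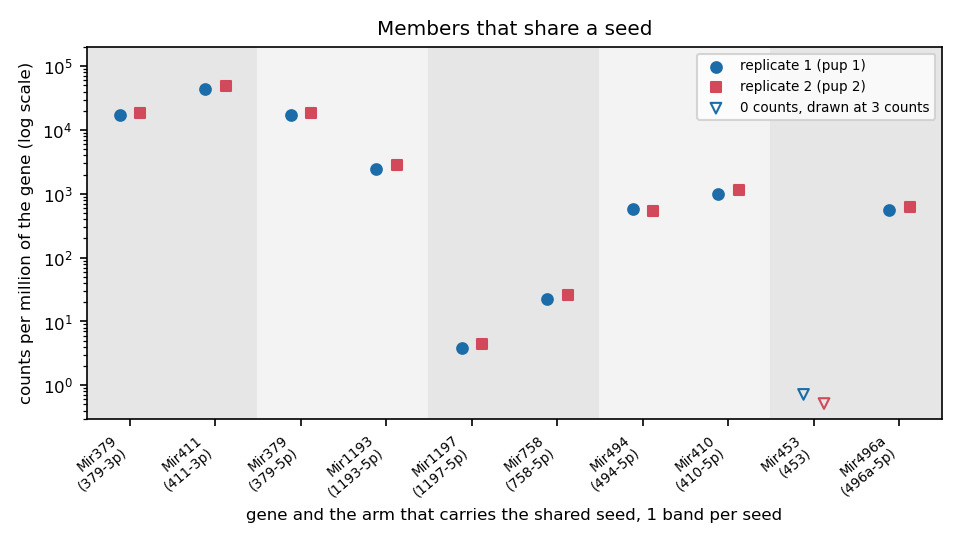
Level in CPM (log axis) of the genes in each of the 5 seed groups, 1 shaded band per seed, with circles for replicate 1, squares for replicate 2 and open triangles for 0 counts. Mir379 and Mir411 lie above all others, and the partners within a band lie at different levels in both libraries.

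Between the pups, nearly the whole cluster was higher in replicate 2, by a similar small factor. After TMM scaling, which sets the 2 libraries to a common level over most genes, 34 of 36 tested members had a higher value in replicate 2, against 50.5% of all 376 genes tested. The members' median log2 ratio of replicate 2 over replicate 1 was 0.34, beside 0.0041 over all genes tested and -0.014 over the 139 other genes with a mean of at least 100 CPM. The middle part of the members, between the quartiles, ran from 0.28 to 0.40. For 29 members the higher value in replicate 2 exceeded counting error, against 26.6% of all genes tested in that direction, and for 1 member the lower value did, against 23.1% (exact binomial test, two-sided, Benjamini-Hochberg adjusted p under 0.05). No member, 0 of 36, was at least 2-fold apart, against 5.05% of all genes tested. This test compares 2 libraries, not conditions, and the members share a domain and are not independent.

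A few members had log2 ratios away from the members' median of 0.34. The p-values and counting error below refer to an equal scaled level in both libraries, not to that median. Whether any member departs from the median was not tested, and Mir544 and Gm27379 rested on few counts. Mir541 was lower in replicate 2, with 35629 and 41059 counts in the smaller and the larger library and a log2 ratio of -0.12 (exact binomial test, adjusted p = 4.53e-29). Its neighbour Mir409, 659 bases away, had a log2 ratio of 0.31. Mir544 had the highest ratio, 0.94, on 46 and 111 counts (exact binomial test, adjusted p = 0.000369). Mir494, Mir679 and Mir668 had ratios of 0.058, 0.057 and 0.073, within counting error. With scaling to total counts, which lowers every log2 ratio by 0.15, these 3 turned to -0.093, -0.094 and -0.079. For Mir494 the lower value in replicate 2 then exceeded counting error (adjusted p = 0.0347 by the exact binomial test), and Mir412, with a ratio of 0.27 under TMM, was at 0.12 and no longer beyond it (exact binomial test, adjusted p = 0.0562). Under total counts the members' median was 0.19 beside -0.15 over all genes. Under that scaling 31 of 36 members, against 37.5% of all genes tested, had a higher value in replicate 2. Gm27379 had 23 counts in each library and a ratio of -0.32, also within counting error. Among the 5 most abundant members the ratio ran from 0.23 for Mir379 to 0.51 for Mir381.

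**Figure D4:**
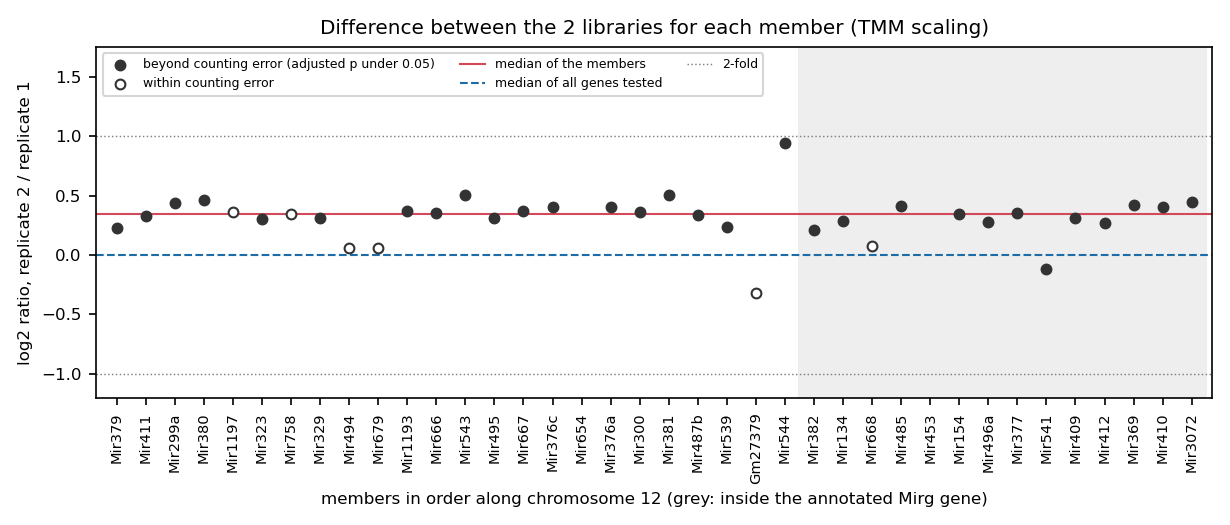
The log2 ratio of replicate 2 over replicate 1 after TMM scaling for the 36 members tested, in genomic order, with filled circles where the difference exceeded counting error and open circles where it did not. Most members lie near the red line at their median of 0.34, above the dashed line for all genes at 0.0041, with Mir541 and Gm27379 below 0 and Mir544 highest at 0.94.

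Across the 36 members, the ratio had a Spearman rho of -0.017 with order along the cluster and 0.196 with mean CPM, both descriptions across genes of the same libraries. The listed miRNA genes nearer to Dlk1, from Mir770 to Mir370, were also mostly higher in replicate 2. Of 19 genes on that list 18 were listed, including Mir127 and Mir431, which lie opposite the Rtl1 coding gene, and 16 were tested. Their median log2 ratio was 0.37. Beyond counting error, 14 of 16 were higher in replicate 2, against 26.6% of all genes tested. At 2-fold there were 0 of 16, against 5.05% of all genes tested. By own-strand counts alone, the genes on that list held 12.6% and 14.6% of all miRNA counts. The cluster's share, by contrast, includes opposite-strand counts for 4 members. Whether the ratios of the 2 stretches differ was not tested. The muscle markers, 8 of 8 tested, had a median of 0.30. All 8 were higher in value in replicate 2, against 50.5% of all genes tested. For 5 of them this was beyond counting error, against 26.6% of all genes tested. Epithelial markers had a median of -4.14 and Mir140 a ratio of -2.63, and leaving both lists out of the TMM step left the cluster's median at 0.34. In bulk tissue, fewer cells of a type and less RNA per cell cannot be told apart, and the part of tissue makeup in the difference between the pups was not tested.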

How the data were processed

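Small RNA of newborn mouse skeletal muscle was sequenced in 2 libraries. The authors deposited whole-number read counts per miRNA gene for each library, on build mm10 with annotation M4 per the deposited descriptions. The aligner and counter are not given in the sources used here. The 3 unnamed count columns were read as both strands, own strand and opposite strand, since the first equals the sum of the others in every gene; the sources used here do not name them. The 4 leading lines (unmapped, multimapping, no feature, ambiguous) stayed out of library sizes. Of 1973 genes, 1894 matched GENCODE M21 by identifier. CPM used counts of both strands in all genes as the total. Ratios were taken after adding 0.5 to each count and scaling by TMM (edgeR 4.0.16, R 4.3.3, factors 1.05 and 0.949). Genes with at least 10 counts in total were tested by an exact binomial test given the scaled library sizes, adjusted over all 376 genes, at a threshold of 0.05. A count of 0 allows 3 counts. Intervals are exact Clopper-Pearson at 95% from scipy 1.17.1 and cover counting error only, as reads carried no molecular identifiers. On simulated counts for 355 genes, 97 of 99 genes changed 4-fold and 41 of 92 changed 2-fold were called at the 2-fold minimum, and 0 of 164 unchanged genes were. The simulated counts held counting error only, which is the model of the test. These rates therefore do not cover the variation beyond counting error between the 2 libraries. All members could be named. Full values were given for the 12 most abundant and the seed-sharing members. Single members with ratios away from the members' median were named after their values were seen. The members and lists were chosen with earlier results of these data known. Alternatives were other columns, denominators, scalings (DESeq2 1.42.0 size factors, total counts, TMM outside Dlk1-Dio3), count minimums and pseudocounts, each library alone, and the cluster without members that share 20 bases.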

Additional observations from a re-analysis of the deposited data

Results flagged for a closer look

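Own-strand counts at Mir299b, the minus-strand gene opposite Mir299a, were not used in the report and lay above the 3 counts that a count of 0 allows: 22 in replicate 1 and 33 in replicate 2. They were 0.0582% and 0.0516% of the counts at that place, the rest being 37783 and 63886 on the strand of Mir299a. The own-strand counts of the other 3 minus-strand rows were 0 in both libraries. In the RefSeq table all 18 bases of miR-299b-3p occur in miR-299a-3p, and all 21 bases of miR-299b-5p occur in miR-299a-5p. The part of that likeness in these counts was not tested.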

How the results depend on the processing

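Of 51 values computed under alternatives, 41 stayed close to the main value and 0 changed direction, which only the median log2 ratio could do. Close meant within the SD of the 2 libraries for shares and within a set fold range for counts. For the median log2 ratio it meant less than 0.052 away. The shares of either library alone are close by construction, so the tally is a description of these rules. Using the own-strand column for every gene lowered the cluster's share of counts from 26.3% to 21.2%, and raised the share of cluster counts in the 5 most abundant members to 79.0% and in seed-sharing members to 32.6%, because Mir376a, Mir409, Mir299a and Mir380 drop out. Leaving out those 4 members also gave 21.2%, an alternative added after seeing the data, as was TMM without the epithelial and cartilage lists. The cluster's share was 29.4% over own-strand counts and 15.3% over all reads. Without members that share a stretch of 20 bases it was 15.1%, with 66.6% in the 5 most abundant and 15.0% in seed-sharing members, since Mir411 and Mir487b are left out. Total-count scaling gave a median log2 ratio of 0.19. Genes called at 2-fold ran from 13 to 22 around 19. Either library alone gave shares of 24.4% to 28.1% for the cluster, 66.9% to 67.6% for the 5 most abundant, 25.9% to 26.9% for seed-sharing members and 36 to 36 members with 10 counts. The ratios could not be computed from 1 library. No paired analysis was possible because the labels name 1 group only. The values of members with few reads, such as Mir1197, and of those at 0, Mir654 and Mir453, are imprecise at this depth. Why they were low was not tested.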
